A study of Mus musculus with 23 samples.

Results

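The sodium and iodide cotransporter gene Slc5a5 and 6 genes that carry thyroid hormone into brain cells, activate it there, or sense and answer it were followed across 23 hippocampal RNA sequencing libraries from mice. The 7 genes, Slc5a5, Slco1c1, Dio2, Thra, Thrb, Klf9 and Hr, were taken by their symbols from the 21785 genes of the deposited table, and all 7 passed the filter on low values that left 13971 genes for testing. The set was chosen by the measured difference of Slc5a5 from WT, which was positive in every duplication group in earlier results of these data. Its differences from WT are therefore given as a description, with no test, while its other comparisons and all comparisons of the other 6 genes were tested.

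The libraries came from 4 genotypes: 5 from wild-type mice (WT), 7 from mice with the Dp(16)1/Yey duplication (Dp16), 6 labelled Dp16/D-KO and 5 labelled Dp16;D-KO/K-KO. The duplication, labelled as trisomy, adds a copy of the stretch of mouse chromosome 16 that corresponds to part of human chromosome 21 and serves as a model of Down syndrome. In the labels D-KO is a knockout of Dyrk1a, a kinase gene within the duplication, and K-KO one of Kcnj6, a potassium channel gene within it, each meant to bring the dosage of that gene back; the labels do not say how the alleles were made. All 18 libraries outside WT carry the duplication. The labels form 2 batches: 10 libraries of batch 1, from C57BL/6 mice aged 2 to 3 months (2 WT, 3 Dp16, 3 Dp16/D-KO and 2 Dp16;D-KO/K-KO) and labelled total RNA, and 13 of batch 2, labelled polyA RNA, whose labels give a background that is over 90% C57/B6 and no age (3, 4, 3 and 3).

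Values are RPKM, reads per kilobase of transcript, scaled to the mapped reads of each library. Depth was estimated from the steps of low values at 14750000 to 17250000 reads a library, a weak estimate since only 40.4% to 60.7% of those values came within 0.15 of a whole read. Genes of hippocampal neurons were present in every library, with Slc17a7 at 499.9 RPKM or more and the dentate granule cell gene Prox1 at 14.1 RPKM or more. Dyrk1a and Kcnj6 stayed above WT in the libraries labelled as knockouts, and neither was called lower there than in Dp16 (Dyrk1a 24.3 RPKM in Dp16, 24.3 in Dp16/D-KO and 24.7 in Dp16;D-KO/K-KO against 16.9 in WT, Kcnj6 26.9, 26.0 and 25.6 against 18.3), so the names of those groups are used as labels only. The log2 difference of Dyrk1a between Dp16/D-KO and Dp16 was -0.01 (adjusted p = 0.935, limma), and that of Kcnj6 between Dp16;D-KO/K-KO and Dp16 was -0.06 (adjusted p = 0.822). The Y-linked gene Ddx3y went against the sex letter of the WT libraries F1 (12.65 RPKM) and M3 (0.01 RPKM). Without these 2 libraries Slc5a5 was 0.73 above WT over the 3 duplication groups, against 0.75 with them (log2 difference).

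Thyroid hormone reaches the brain mainly as thyroxine, which enters across the blood-brain barrier through carriers such as the one Slco1c1 encodes. The type 2 deiodinase, the product of Dio2, turns it into the more active triiodothyronine in astrocytes and tanycytes. Triiodothyronine binds the nuclear receptors encoded by Thra and Thrb, which sit on DNA with retinoid X receptors and exchange corepressors for coactivators when the hormone is bound, and Klf9 and Hr are direct targets in rodent brain. Slc5a5 stands at the other end of the axis: it is best known for pumping iodide into thyroid follicular cells, the step before hormone synthesis.

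The 250 bases before the annotated start are shown for 4 of the genes, because the receptor complex binds copies of AGGTCA and Dio2 is known to respond to cyclic AMP, whose response element is TGACGTCA. They are from RefSeq (GRCm38.p6, the assembly of mm10), whose table held windows for 5 of the 7 genes, and capitals mark AGGTCA or its reverse complement TGACCT and the palindrome TGACGTCA. The windows are chr8:70892758-70893007 on the minus strand for Slc5a5, chr12:90739039-90739288 on the minus strand for Dio2, chr14:17660710-17660959 on the plus strand for Thrb and chr19:23140976-23141225 on the plus strand for Klf9.
Slc5a5: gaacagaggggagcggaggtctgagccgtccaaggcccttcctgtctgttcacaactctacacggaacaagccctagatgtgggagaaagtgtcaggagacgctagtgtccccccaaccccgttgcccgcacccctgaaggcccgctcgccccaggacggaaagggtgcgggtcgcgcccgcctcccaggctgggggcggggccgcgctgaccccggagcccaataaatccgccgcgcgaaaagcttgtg
Dio2: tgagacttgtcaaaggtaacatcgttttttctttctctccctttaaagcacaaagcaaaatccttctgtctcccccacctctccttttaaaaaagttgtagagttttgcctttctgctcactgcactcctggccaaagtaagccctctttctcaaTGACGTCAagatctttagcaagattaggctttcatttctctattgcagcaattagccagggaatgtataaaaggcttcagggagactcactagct
Thrb: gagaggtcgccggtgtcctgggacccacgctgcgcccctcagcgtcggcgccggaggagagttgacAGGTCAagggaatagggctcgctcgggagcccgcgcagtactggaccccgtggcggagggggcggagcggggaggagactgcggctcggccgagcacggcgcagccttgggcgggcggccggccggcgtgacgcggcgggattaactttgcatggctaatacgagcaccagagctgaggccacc
Klf9: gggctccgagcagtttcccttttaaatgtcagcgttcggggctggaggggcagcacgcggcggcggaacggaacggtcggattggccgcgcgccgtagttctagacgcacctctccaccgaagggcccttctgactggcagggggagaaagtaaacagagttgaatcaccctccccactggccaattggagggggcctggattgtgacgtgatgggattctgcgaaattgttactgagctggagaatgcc

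The table held a pair of Thrb windows. The one shown held 1 AGGTCA copy, at position -184 counted from the annotated start, and the other, at chr14:17981394-17981643 with 44% G and C, held none. The windows of Slc5a5, Dio2, Klf9 and Slco1c1 held none. Over all 32851 windows of this length 14.02% held at least 1 copy on either strand. The Dio2 window held TGACGTCA at position -95, a motif present in 1.55% of all windows and searched for after the sequence had been seen. The Slc5a5 window was rich in G and C, at 66.4% against a median of 52.4% over the windows. The gene spans of the deposited table reach further upstream for Slc5a5, Thrb and Klf9, so these 3 windows lie within those spans, and no match in a window says nothing about binding elsewhere.

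Slc5a5 (Gene ID 114479, mm10 chr8:70882604-70893052) lies on chromosome 8, outside the duplicated chromosome 16 stretch. In WT it was at 5.95 RPKM in F1, 7.22 in F2, 7.22 in M2, 7.29 in M3 and 7.15 in M4. In the 7 Dp16 libraries its lowest value was 6.36 RPKM, its median 12.46 and its highest 14.16. Of these 7 libraries 6, all but F1 at 6.36, were above every WT library.

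In the libraries labelled Dp16/D-KO the lowest Slc5a5 value was 10.77 RPKM, the median 12.67 and the highest 13.15. In Dp16;D-KO/K-KO libraries it was at 10.74 RPKM in F1, 10.84 in F2, 12.10 in M1, 10.38 in M2 and 11.31 in M3. Neither group overlapped WT, a separation that 1.22% and 1.08% of the 13971 tested genes showed in these groups, and that 0.837% showed between Dp16 and WT. In estimated reads, Slc5a5 had 296 to 357 in a WT library and 310 to 703 in a duplication library.

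**Figure D1:**
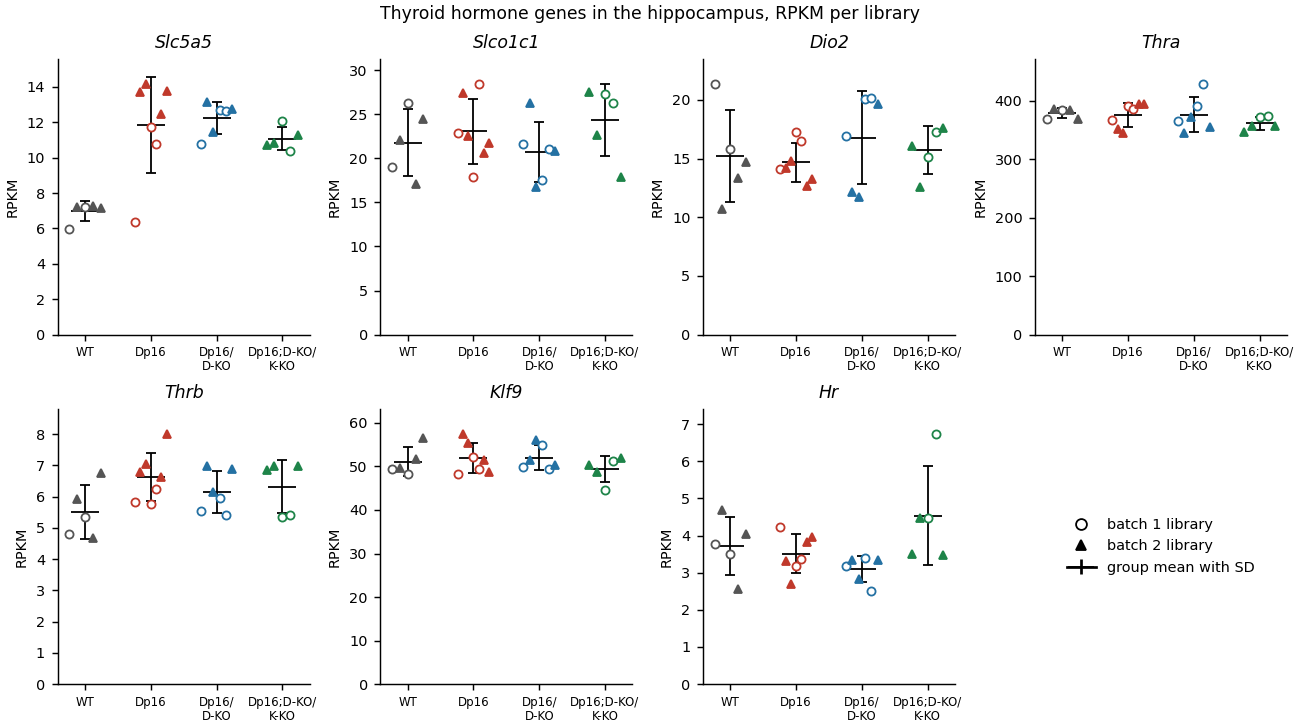
RPKM of the 7 genes in each of the 23 libraries, by genotype; open circles are batch 1 libraries, filled triangles batch 2 libraries, and bars the group mean with its SD. In Slc5a5, 17 of the 18 duplication libraries lie above all 5 WT libraries and Dp16 F1 lies among them, while in the other 6 genes every duplication group overlaps WT.

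Mean Slc5a5 levels were 6.97 ± 0.57 RPKM in WT (SD, n = 5), 11.9 ± 2.71 in Dp16 (SD, n = 7), 12.25 ± 0.918 in Dp16/D-KO (SD, n = 6) and 11.1 ± 0.663 in Dp16;D-KO/K-KO (SD, n = 5). After allowing for batch and sex letter, the log2 difference of log2(RPKM + 0.1) from WT was 0.73 in Dp16 (95% confidence interval 0.50 to 0.96), 0.85 in Dp16/D-KO (0.61 to 1.09) and 0.66 in Dp16;D-KO/K-KO (0.42 to 0.91). These 3 comparisons share the 5 WT libraries. In the authors' deposited table the Slc5a5 log2 fold changes are 0.78, 0.82 and 0.66 in the same order. The share of all tested genes called in these comparisons, at an adjusted p under 0.05, was 1.45% for Dp16, 1.28% for Dp16/D-KO and 0.752% for Dp16;D-KO/K-KO against WT.

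The spread of Slc5a5 was widest in Dp16, where F1 was the lowest library. Without it the other 6 Dp16 libraries were at 12.8 ± 1.34 RPKM, and the log2 difference from WT was 0.85. Dp16 F1 was at the duplication level for Dyrk1a, Kcnj6 and Son of chromosome 16. It had 24.85 RPKM of Dyrk1a, 31.89 of Kcnj6, the highest of the 23 libraries, and 77.69 of Son. Son, a splicing factor gene in the duplication, reached at most 49.35 in WT. Mrpl39, also on chromosome 16, was at 33.52 RPKM in Dp16 F1, within WT at up to 34.41. Among the other genes followed here Dp16 F1 was lowest of the 7 Dp16 libraries in Klf9 (48.36 RPKM) and highest in Hr (4.23 RPKM). It stood apart as the lowest Dp16 library in 19 of the 13971 genes, against 6 to 44 genes for the other Dp16 libraries. As the highest it stood apart in 73 genes, against 16 to 166 for the others.

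Of the tested genes, 50 had all 18 duplication libraries above all WT libraries and 12, Slc5a5 among them, had 17 of the 18. Of these 62 genes, 56 were on chromosome 16 and 6 were elsewhere: Slc5a5, Fdft1, Sardh, Selenov, Ttc13 and the gene with the symbol a, a pattern looked up after the values had been seen. Dp16 F1 was the library that stayed within the WT range in 3 of the 12, namely Slc5a5, the mitochondrial ribosomal protein gene Mrpl39 and the sarcosine dehydrogenase gene Sardh.

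Between the duplication groups Slc5a5 did not pass the test. The log2 difference of Dp16/D-KO from Dp16 was 0.12 (95% confidence interval -0.10 to 0.33, adjusted p = 0.62, limma), that of Dp16;D-KO/K-KO from Dp16 was -0.07 (-0.30 to 0.16, adjusted p = 0.866), and that of Dp16;D-KO/K-KO from Dp16/D-KO was -0.19 (-0.42 to 0.05, adjusted p = 0.684). No member was called in these 3 comparisons, in which 0.143%, 0.0358% and 0% of all tested genes were called; in the last, 1260 genes had an unadjusted p under 0.05. The intervals hold differences in either direction, so equal levels were not shown.

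Slc5a5 was higher in batch 2 than in batch 1, by 0.25 on the log2 scale (adjusted p = 0.0169, limma), in a contrast that called 49.4% of all tested genes. Mean levels were 6.59 RPKM in batch 1 and 7.22 in batch 2 for WT, and 9.62 and 13.5 for Dp16. The batch 1 mean of Dp16 has Dp16 F1 in it. For Dp16/D-KO they were 12.04 RPKM in batch 1 and 12.46 in batch 2. For Dp16;D-KO/K-KO they were 11.24 and 10.96, so not every group was higher in batch 2. Within batch 1 the log2 difference from WT was 0.42 in Dp16, 0.79 in Dp16/D-KO and 0.54 in Dp16;D-KO/K-KO, and within batch 2 it was 0.89, 0.78 and 0.59. A test of whether the duplication effect on Slc5a5 differed between batches gave a log2 term of 0.19 (adjusted p = 0.836), in a comparison that called 0% of genes, with 1154 at an unadjusted p under 0.05.

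Libraries with the letter M had Slc5a5 0.19 above those with F on the log2 scale (adjusted p = 0.503, limma), a comparison in which 0.0429% of genes were called. The duplication effect differed between the letters by 0.12 (adjusted p = 0.959), where 0.0143% of genes were called. No other member was called in either of these comparisons. In WT the libraries F1 and M3 go against their letter in Ddx3y, so these tests compare letters and may not compare sexes.

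None of the 4 named neighbours of Slc5a5 on chromosome 8 passed the test. Over the 3 duplication groups together Slc5a5 was 0.75 above WT on the log2 scale (95% confidence interval 0.55 to 0.95). The potassium channel gene Kcnn1 was at -0.06 (adjusted p = 0.71, limma), Ccdc124 at 0.02 (adjusted p = 0.964) and the arrestin family gene Arrdc2 at 0.13 (adjusted p = 0.906). On the other side the microtubule protein gene Map1s was at 0.14 (adjusted p = 0.345). This comparison called 1.16% of all tested genes. Dp16 F1, low in Slc5a5, had the lowest Ccdc124 (50.13 RPKM) of all 23 libraries. Counted from the lowest, it was at rank 2 in Kcnn1, rank 4 in Map1s and rank 7 in Arrdc2.

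**Figure D2:**
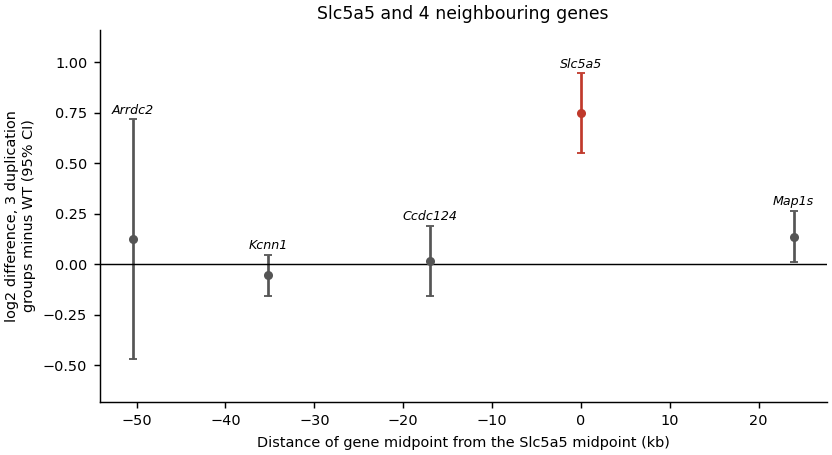
Log2 difference of the 3 duplication groups together from WT (vertical axis, with 95% confidence interval) for Slc5a5 and 4 of its neighbours, against the distance of each gene's midpoint from that of Slc5a5 in kb. Slc5a5 stands at 0.75 and the 4 neighbours lie between -0.06 and 0.14.

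Slc5a5 levels were set beside markers of other tissue, as a hippocampal dissection can take choroid plexus along. The 14 choroid plexus markers summed to 74.4 to 2881 RPKM in WT, 102 to 4437 in Dp16, 51.1 to 3843 in Dp16/D-KO and 85.3 to 4415 in Dp16;D-KO/K-KO. Ttr, the choroid plexus transcript for the thyroxine carrier transthyretin, ran from 8.36 RPKM in Dp16/D-KO M2 to 3760 in Dp16;D-KO/K-KO M1, and these libraries had Slc5a5 at 12.63 and 12.10. Within Dp16, Slc5a5 and Ttr were at 6.36 and 41.85 RPKM in F1, 13.69 and 3444 in F2, 14.16 and 2009 in F3, 11.71 and 22.78 in M1, 10.80 and 3495 in M2, 12.46 and 64.44 in M3, and 13.79 and 90.48 in M4. In WT they were at 5.95 and 10.25 in F1, 7.22 and 1492 in F2, 7.22 and 1497 in M2, 7.29 and 552.7 in M3, and 7.15 and 2350 in M4. The lowest Slc5a5 library of each of these groups, F1, had little Ttr. With the mean of the choroid plexus markers in the model the log2 differences of Slc5a5 from WT were 0.74, 0.91 and 0.63, and the part of choroid plexus in the difference was not tested.

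**Figure D3:**
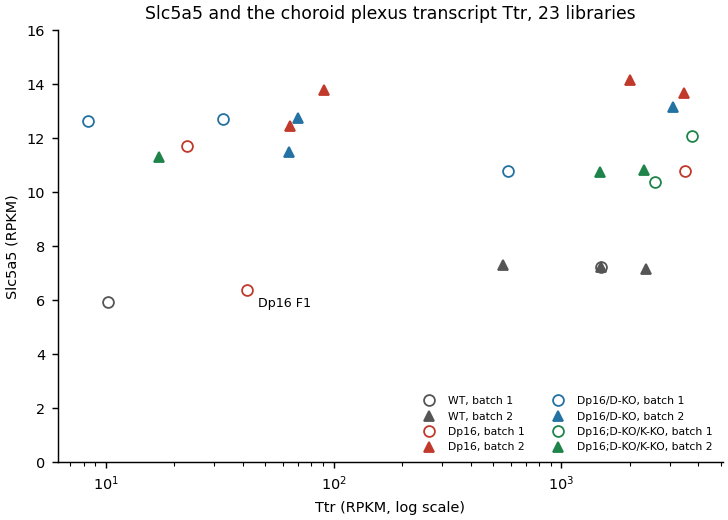
Slc5a5 (vertical axis, RPKM) against Ttr (horizontal axis, RPKM on a log scale) in the 23 libraries, coloured by genotype, with open circles for batch 1 and filled triangles for batch 2. The duplication libraries span Ttr from 8.36 to 3760 RPKM, and the WT libraries, at 7.29 RPKM of Slc5a5 or less, span Ttr from 10.25 to 2350 RPKM.

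Markers of other cell types were counted in the same way. The 10 astrocyte markers summed to 1040 to 1151 RPKM over all libraries, the 10 endothelial markers to 96.3 to 134.9, the 8 microglia markers to 129.9 to 163 and the 6 tanycyte markers to 108.5 to 201.8. The 10 myelin markers reached the lowest sums in Dp16/D-KO, at 1370 to 2838 RPKM against 2526 to 3474 in WT, 2360 to 3438 in Dp16 and 2524 to 3397 in Dp16;D-KO/K-KO. The 10 excitatory neuron markers summed to 785.4 to 1017 RPKM and the 8 interneuron markers to 544.8 to 819.6. Single markers were called against WT within these lists. Of all tested genes 1.16% were called over the 3 duplication groups, 1.45% in Dp16, 1.28% in Dp16/D-KO and 0.752% in Dp16;D-KO/K-KO. Wfs1, a gene of CA1 pyramidal cells, was the 1 of 10 excitatory neuron markers called higher over the 3 duplication groups (0.38, adjusted p = 0.000147, limma). Of these 10 markers 3 lay above and 7 below WT, with a median of -0.13. Wfs1 was called in each group: 0.34 in Dp16, 0.49 in Dp16/D-KO and 0.31 in Dp16;D-KO/K-KO. The Dp16;D-KO/K-KO call held in 22 of 36 other settings. In Dp16 alone the astrocyte gene S100b (0.27, adjusted p = 0.0173) and the interneuron gene Htr3a (0.44, adjusted p = 0.0221) were called higher and the microglia gene Tmem119 lower (-0.26, adjusted p = 0.0287). In Dp16, 4 astrocyte markers lay above WT and 6 below, all 8 interneuron markers above, and 4 microglia markers above and 4 below. The calls held in 31 of 36 other settings for S100b, 30 for Htr3a and 26 for Tmem119. In Dp16/D-KO the myelin gene Ugt8a was called lower (-0.59, adjusted p = 0.0449), a call that held in 14 of 36 other settings. All 10 myelin markers lay below WT in that group. None of the choroid plexus or endothelial markers was called over the 3 groups. Of the 6 tanycyte markers 4 were tested, Col25a1, Nes, Vim and Crym, and none of them was called. Rax and Gpr50 were under the filter on low values, so nearly all of the tanycyte sum came from those 4 genes. In tissue of this kind fewer cells of a type and less RNA per cell cannot be told apart, and the part of these markers in the results was not tested.

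The genes that define a thyroid follicular cell were mostly near 0. Of 18 genes of iodide handling and follicular identity 17 had values, and 6 passed the filter on low values. Thyroglobulin (Tg, at most 0.03 RPKM), the thyrotropin receptor (Tshr, 0.22), Pax8 (0.22) and the oxidases Duox1 (0.08) and Duox2 (0.17) stayed near 0 in every library. Over the 3 duplication groups none of the 6 was called, where 1.16% of all tested genes were. Above WT lay 1 and below it 5, with a median log2 difference of -0.13 against -0.01 for all tested genes. Hhex, a homeobox gene of the thyroid bud that blood vessel cells also express, was at 1.38 ± 0.592 RPKM in WT (SD, n = 5) and 0.739 ± 0.17 in Dp16 (SD, n = 7), and was called lower in Dp16 than in WT (-0.75, adjusted p = 0.0397, limma) but not over the 3 groups (-0.60, adjusted p = 0.069). The Dp16 call held in 18 of 35 other settings. The iodotyrosine deiodinase gene Iyd, which salvages iodide, was at 2.88 ± 0.753 RPKM in WT (SD, n = 5) and lay 0.41 lower over the 3 groups (adjusted p = 0.138). The anion exchanger gene Slc26a4 was at -0.16 (adjusted p = 0.52) and the chloride channel gene Ano1 at 0.21 (adjusted p = 0.752).

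Slc5a5 was also set beside the rest of its family of sodium-coupled carriers. Of 12 other Slc5 genes 10 were under the filter on low values. Slc5a3, the myo-inositol carrier gene, which lies in the duplicated stretch at mm10 chr16:92058322-92087473, was called higher over the 3 groups (0.37, adjusted p = 0.04997, limma), a call that held in 10 of 35 other settings. Its values were 2.94 to 3.42 RPKM in WT and 3.05 to 5.46 in the duplication libraries. The vitamin carrier gene Slc5a6 was at 0.09 (adjusted p = 0.825).

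The hormone carrier gene Slco1c1 did not pass the test in any comparison. It was at 19.02 RPKM in F1, 22.07 in F2, 26.32 in M2, 17.14 in M3 and 24.43 in M4 of WT. Dp16 libraries lay between 17.91 and 28.43 RPKM with a median of 22.5, Dp16/D-KO libraries between 16.76 and 26.29 with a median of 21.0, and Dp16;D-KO/K-KO libraries between 17.92 and 27.59 with a median of 26.26, so all groups overlapped. Its log2 difference from WT was 0.08 in Dp16 (95% confidence interval -0.20 to 0.36, adjusted p = 0.847, limma), -0.09 in Dp16/D-KO (-0.38 to 0.20, adjusted p = 0.832) and 0.16 in Dp16;D-KO/K-KO (-0.14 to 0.46, adjusted p = 0.772).

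Of 8 other thyroid hormone carrier genes 7 were tested and none was called over the 3 duplication groups, where 1.16% of all tested genes were. Above WT lay 5 and below it 2, with a median log2 difference of 0.05. The amino acid carrier genes Slc7a5 and Slc7a8, which also move thyroid hormone, were at 0.09 (adjusted p = 0.733, limma) and 0.05 (adjusted p = 0.667), and Slco4a1 was at 0.18 (adjusted p = 0.698).

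The activating deiodinase gene Dio2 varied more between libraries of a genotype than between genotypes. In WT it ran from 10.74 RPKM in F2 to 21.34 in F1, with 15.82 in M2, 13.32 in M3 and 14.71 in M4. All 18 duplication libraries lay within this range, from 11.69 to 20.20 RPKM. Its log2 difference from WT was -0.02 in Dp16 (95% confidence interval -0.27 to 0.23, adjusted p = 0.959, limma), 0.13 in Dp16/D-KO (-0.13 to 0.39, adjusted p = 0.703) and 0.08 in Dp16;D-KO/K-KO (-0.19 to 0.35, adjusted p = 0.898). It was 0.28 lower in batch 2 than in batch 1 (adjusted p = 0.0147), a call lost without WT F1, one of the libraries that go against their sex letter (adjusted p = 0.0793).

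Dio3, the gene of the deiodinase that inactivates the hormone, was at 3.24 ± 0.607 RPKM in WT (SD, n = 5), 3.24 ± 0.431 in Dp16 (SD, n = 7), 4.59 ± 0.82 in Dp16/D-KO (SD, n = 6) and 4.01 ± 0.539 in Dp16;D-KO/K-KO (SD, n = 5). It did not pass the test over the 3 groups (0.27, adjusted p = 0.305, limma). Of the 8 tested genes for other deiodinases, their regulators and hormone binding proteins none was called there, where 1.16% of all tested genes were. Above WT lay 4 and below it 4, and the median was 0.03. Secisbp2, needed to build selenoproteins such as the deiodinases, was at -0.07 (adjusted p = 0.614), and Usp20 and Wsb1, which remove and add ubiquitin on the Dio2 protein, were at 0.05 (adjusted p = 0.671) and 0.06 (adjusted p = 0.79).

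Thra was the most abundant of the 7 genes, at 373 RPKM over the 23 libraries, against 6.19 for Thrb. In WT it was at 368.8 RPKM in F1, 385.5 in F2, 384.1 in M2, 384.6 in M3 and 368.9 in M4, and the duplication libraries ran from 344.0 to 428.1 on either side of that narrow range. Its log2 difference from WT was -0.01 in Dp16 (95% confidence interval -0.09 to 0.07, adjusted p = 0.924, limma), -0.01 in Dp16/D-KO (-0.09 to 0.08, adjusted p = 0.954) and -0.07 in Dp16;D-KO/K-KO (-0.16 to 0.02, adjusted p = 0.636), the narrowest intervals among the 7 genes. Thra overlaps the clock gene Nr1d1, which is read from the opposite strand, and the labels do not mention strand, so reads of the overlap cannot be told apart. Nr1d1 was at 23.98 to 51.50 RPKM and differed by -0.01 over the 3 groups (adjusted p = 0.985), and by 0.45 between batches (adjusted p = 3.05e-05).

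Thrb came nearest to the threshold among the 6 genes tested against WT, and did not pass it. It was at 4.80 RPKM in F1, 5.92 in F2, 5.36 in M2, 4.67 in M3 and 6.76 in M4 of WT. In Dp16 it was at 5.84 in F1, 6.80 in F2, 7.05 in F3, 5.77 in M1, 6.24 in M2, 6.63 in M3 and 8.01 in M4. Of these 7 libraries 3 lay above all of WT and none below.

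The log2 difference of Thrb from WT was 0.28 in Dp16 (95% confidence interval 0.13 to 0.43, adjusted p = 0.06, limma), 0.19 in Dp16/D-KO (0.04 to 0.35, adjusted p = 0.245) and 0.20 in Dp16;D-KO/K-KO (0.03 to 0.36, adjusted p = 0.391). In these comparisons 1928, 1921 and 1374 of the 13971 tested genes had an unadjusted p under 0.05. The authors' deposited Thrb log2 fold changes are 0.28, 0.17 and 0.20, with adjusted p of 0.514, 0.838 and 0.998 by their unnamed test. Mean levels were 5.50 ± 0.861 RPKM in WT (SD, n = 5), 6.62 ± 0.777 in Dp16 (SD, n = 7), 6.15 ± 0.667 in Dp16/D-KO (SD, n = 6) and 6.31 ± 0.849 in Dp16;D-KO/K-KO (SD, n = 5). The Dp16 difference passed the threshold when WT M4 was left out (0.33, adjusted p = 0.0231) or WT M2 (0.31, adjusted p = 0.0384). Over the full set of other settings it ran from 0.17 to 0.33, with adjusted p from 0.0231 to 0.538. The lowest WT values of Thrb, 4.67 RPKM in M3 and 4.80 in F1, are from the libraries that go against their sex letter. Over the 3 duplication groups the Thrb difference was 0.22 (adjusted p = 0.0962), with adjusted p from 0.0464 to 0.659 over the other settings.

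Thrb differed between batches by 0.26 on the log2 scale (adjusted p = 0.00046, limma), with means of 5.57 RPKM in batch 1 and 6.67 in batch 2. Within batch 1 it was 5.08 RPKM in WT and 5.95 in Dp16, and within batch 2 it was 5.78 and 7.12. Slc5a5, Dio2 and Thrb were the 3 members called between batches, 3 of 7 in a contrast that called 49.4% of all tested genes.

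**Figure D4:**
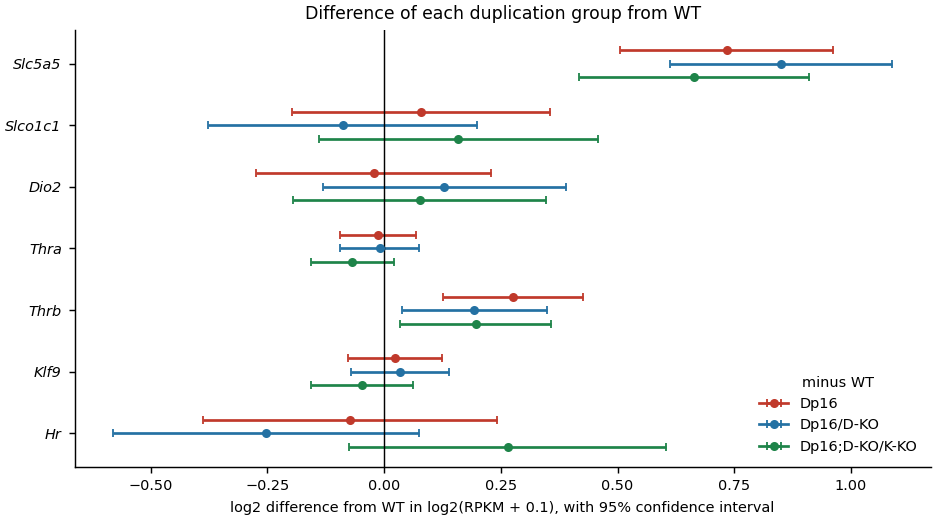
Log2 difference of each duplication group from WT for the 7 genes (horizontal axis, log2(RPKM + 0.1), points with 95% confidence intervals, coloured by group). Slc5a5 lies between 0.66 and 0.85 in the 3 groups, Thrb between 0.19 and 0.28, and the intervals of the other 5 genes span 0.

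Of 14 receptor partners and coregulators all were tested. Over the 3 duplication groups, where 1.16% of all tested genes were called, 1 of the 14 was called. This was Nrip1, a corepressor gene in the duplicated chromosome 16 stretch, at 6.07 to 7.70 RPKM in WT and 8.56 to 10.49 in the duplication libraries, with no overlap (0.50, adjusted p = 5.53e-07, limma). It was called higher in each group against WT as well. The other 13 ran from -0.10 for the mediator subunit Med1 (adjusted p = 0.263) to 0.36 for the retinoid X receptor gene Rxrg (adjusted p = 0.123), with the corepressor deacetylase gene Hdac3 at 0.17 (adjusted p = 0.21). Above WT lay 5 of the 14 and below it 9, with a median of -0.03.

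The direct target Klf9, a transcription factor gene whose level follows triiodothyronine in rodent neurons, did not pass the test against WT. It was at 49.37 RPKM in F1, 49.57 in F2, 48.20 in M2, 51.78 in M3 and 56.47 in M4 of WT and at 44.68 to 57.52 in the duplication libraries. Its log2 difference was 0.02 in Dp16 (95% confidence interval -0.08 to 0.12, adjusted p = 0.879, limma), 0.03 in Dp16/D-KO (-0.07 to 0.14, adjusted p = 0.819) and -0.05 in Dp16;D-KO/K-KO (-0.16 to 0.06, adjusted p = 0.819). These intervals leave out changes of the size seen for Slc5a5 and hold smaller ones in either direction. Whether hormone signalling differed was not tested.

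Hr, the corepressor gene hairless, another direct target, was at 3.77 RPKM in F1, 4.70 in F2, 3.49 in M2, 2.56 in M3 and 4.05 in M4 of WT. In Dp16;D-KO/K-KO it was at 3.51 in F1, 4.46 in F2, 4.47 in M1, 6.74 in M2 and 3.48 in M3, where M2 is the highest of the 23 libraries. Its log2 difference from WT was -0.07 in Dp16 (adjusted p = 0.878, limma), -0.25 in Dp16/D-KO (adjusted p = 0.514) and 0.26 in Dp16;D-KO/K-KO (adjusted p = 0.631). Between Dp16;D-KO/K-KO and Dp16/D-KO, the latter at 2.51 to 3.40 RPKM, the difference was 0.52 (95% confidence interval 0.19 to 0.84, adjusted p = 0.285), not past the threshold. The ranges of these 2 groups did not overlap for Hr, as for 0.837% of all tested genes.

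Of 11 other genes known to respond to thyroid hormone in rodent brain none was called over the 3 duplication groups, where 1.16% of all tested genes were. Above WT lay 7 and below it 4, with a median of 0.07. The 4 with the smallest p were Camk4, a calcium-dependent kinase gene, at 0.16 (adjusted p = 0.165, limma), Flywch2 at 0.27 (adjusted p = 0.335), the neurotrophin gene Bdnf at -0.15 (adjusted p = 0.368) and the myelin gene Mbp at -0.17 (adjusted p = 0.535). Mbp is also one of the myelin markers, whose sums ran lowest in Dp16/D-KO. Over all tested genes the median log2 difference was -0.01.

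**Figure D5:**
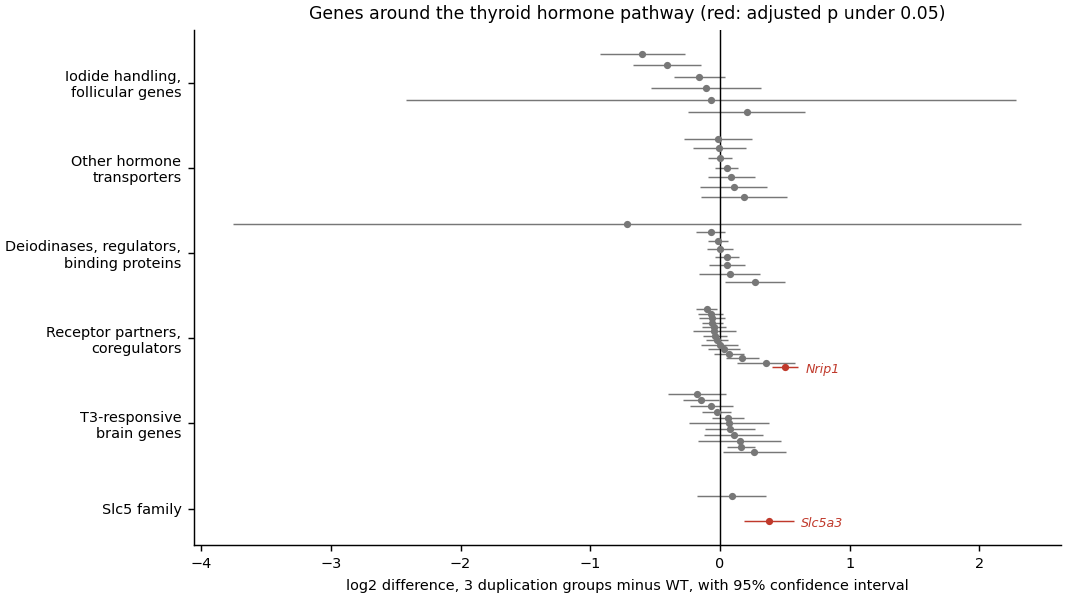
Log2 difference of the 3 duplication groups together from WT (horizontal axis, points with 95% confidence intervals) for the tested genes of 6 lists around thyroid hormone, members left out; red marks an adjusted p under 0.05. Nrip1 at 0.50 and Slc5a3 at 0.37 are called, both on chromosome 16, and the widest intervals belong to Kcne2 and Ttr, which choroid plexus expresses.

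The genes whose log2 levels followed Slc5a5 most closely over the 23 libraries were mainly genes of the duplication. They were Btg3 (Pearson r 0.836, Spearman rho 0.713), Ifngr2 (0.816, 0.666), Mrpl39 (0.808, 0.763) and N6amt1 (0.804, 0.613) on chromosome 16, and Fdft1 (0.799, 0.816) on chromosome 14. The 23 points share genotype, since all 5 genes were called higher over the 3 duplication groups, and r is a description. Slc5a5 was chosen for its rise in every duplication group, so genes that rise with the duplication were bound to come first. Without Dp16 F1 the r values were 0.886, 0.921, 0.832, 0.927 and 0.85 in the same order. Fdft1, the squalene synthase gene of cholesterol synthesis, is outside the duplication and was called higher over the 3 groups (0.27, adjusted p = 0.00222, limma), from 18.86 to 21.74 RPKM in WT to 21.88 to 27.85.

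After group, batch and letter had been removed, the closest were Ubxn4 (r 0.773), Nde1 (0.768), Xrcc5 (0.766), Zfp24 (0.75) and Gsdme (0.744), none of them called over the 3 groups. Dp16 F1 was the lowest of 23 libraries in Ubxn4, Nde1 and Gsdme, and without it r fell to 0.623, 0.573, 0.654, 0.696 and 0.494. Among the members Thrb had the highest r with Slc5a5 in levels (0.561) and 0.06 after that removal, and the other 5 ran from -0.24 for Hr to 0.21 for Klf9 in levels.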

How the data were processed

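Messenger RNA of 23 mouse hippocampi was sequenced; per the labels oligo(dT) beads selected it in each batch. The aligner was HISAT and the build mm10, per the submitters' processing notes. For the counting tool and gene models, the sources used here give nothing. The deposited values are RPKM rounded to 2 decimals, computed by the authors, beside the authors' log2 fold changes, p-values and adjusted p-values, whose test is not given there. RPKM are not counts, so no count model was used. Of 21785 genes, 19064 had values, and the 13971 with a mean RPKM of at least 0.5 were tested as log2(RPKM + 0.1) with limma 3.58.1 in R 4.3.3, with group, batch and sex letter in the model, a mean-variance trend, and Benjamini-Hochberg adjustment over all genes tested. Calls need an adjusted p under 0.05. Fold changes on the log2(RPKM + 0.1) scale understate the change of low genes. The fit was tested on simulated data.

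The members and lists were chosen with earlier results of these data known. Named genes are the 7 members, Dyrk1a and Kcnj6; of each pathway list the called genes and the 4 with the smallest p over the 3 duplication groups; the 3 nearest genes on each side of Slc5a5 and the 5 most like it on each measure, predicted genes left unnamed; genes overlapping a member; and markers beside a result. Some genes that this rule names are not reported here. The labels do not name animals or litters, so p-values measure the spread between these libraries. Alternatives covered the pseudocount, the filter, the batch and sex terms, each batch alone, the groups compared alone, rescaling, a replicate block, the choroid plexus markers and leaving out each library.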

Additional observations from a re-analysis of the deposited data

Results flagged for a closer look

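In 28 sets of 5 to 7 libraries (7 genes in 4 genotypes) the lowest or highest library was far from the others in 2, both in Slc5a5; chance gives about 1 in 20. Slc5a5 in WT F1, at 5.95 RPKM, lay below the other 4 WT libraries at 7.15 to 7.29. Slc5a5 in Dp16 F1, at 6.36 RPKM, lay below the other 6 Dp16 libraries at 10.80 to 14.16, just past the limit for a group of this size (gap over range 0.569 against 0.568). Both libraries are of batch 1 and carry the letter F; WT F1 went against that letter in Ddx3y. Without both WT F1 and WT M3 the log2 difference of Slc5a5 in Dp16 from WT was 0.72, and without Dp16 F1 it was 0.85.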

How the results depend on the processing

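Over 36 other settings, 23 of which leave out a library, no called value reversed. Slc5a5 stayed above WT in all of them, with log2 differences of 0.42 to 0.89 in Dp16, 0.77 to 0.91 in Dp16/D-KO and 0.54 to 0.70 in Dp16;D-KO/K-KO. The lowest, 0.42 in Dp16, was batch 1 alone. Slc5a5 was chosen for its rise in these same libraries, so its constant sign is no separate support. Of 2414 recomputed values that no test had called, 133 changed sign and stayed uncalled. With a replicate block Thrb was called in Dp16 against WT (0.30, adjusted p = 0.0393, limma), as it was after median-ratio rescaling (0.29, adjusted p = 0.0445). The number of members called there was then 1 in place of 0, with Slc5a5 left out as it was not tested against WT. Leaving out single libraries gave 0 to 1 there and 0 to 1 over the 3 duplication groups. The batch difference of Slc5a5 was 0.20 without the sex letter (adjusted p = 0.0587) and 0.43 with the replicate block (adjusted p = 0.335), where 0 of 7 members were called by batch in place of 3. The causes were not tested. The replicate labels were not taken as pairs. Within batches, 21 of 26 pairs of libraries sharing a label had a correlation of their deviations over 0.1, and 24 of 26 pairs with other labels did. The mean correlation was 0.254 in both kinds of pair. Batch was not removed from these deviations, so libraries of a batch are alike with or without a shared label. The cut-off of 0.1 therefore cannot show whether labels are pairs.

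The number of all genes called ran from 48 to 274 in Dp16 against WT (202 in the design used), 44 to 387 in Dp16/D-KO (179), 52 to 116 in Dp16;D-KO/K-KO (105), 56 to 223 over the 3 groups (162), 0 to 105 for Dp16/D-KO against Dp16 (20), 0 to 33 for Dp16;D-KO/K-KO against Dp16 (5), 0 to 1 for Dp16;D-KO/K-KO against Dp16/D-KO (0), 0 to 7562 between batches (6902), 0 to 11 between letters (6), and 0 to 3 and 0 to 5 for the interactions with batch (0) and letter (2).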
